A study of Mus musculus with 30 samples.

Results

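Nkx2-1, Foxa1, Foxa2, Gata6, Cebpa, Sox2, Sox9, Etv5 and Klf5 are transcription factor genes that shape the epithelium of the lung, and the acetylated chromatin around them is described here. The 9 genes were taken by name from 21951 protein-coding genes of the mouse annotation. For each gene, peaks of acetylated lysine 27 on histone H3 (H3K27ac) were collected in 4 peak lists. A peak counted as a promoter peak when it lay within 2.5 kb of any annotated start site of the gene, and as a surrounding peak when it lay within 100 kb of the gene. Peaks outside the promoter windows were called distal unless they lay within 2.5 kb of a start site of some other gene. The rule that collects the peaks uses no score or width.

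The lists came from CK1750 and Tnm2, cell lines of mouse lung adenocarcinoma, cultured with DMSO, the solvent, or with UNC0638 at 1 µM, a small molecule that blocks the H3K9 methyltransferases G9a and Glp. By the labels 9 H3K27ac libraries belonged to these groups, 3 for CK1750 in DMSO and 2 for each of the others, and which of them entered each list is not stated. The 2 libraries of CK1750 with UNC0638 carry the same replicate number, so that group has 1 replicate by the labels and the other groups have 2 each. Each group had 1 merged list, so there was no spread between replicates, no difference was tested, and each line is a single culture model rather than a sample of tumors. The sequencing depth behind the lists is unknown, and the CK1750 lists held 27367 peaks with DMSO and 24601 with UNC0638, the Tnm2 lists 30641 and 18794, which is the order of every set of 4 values below.

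As background, H3K27ac marks promoters and enhancers in use, and broad acetylated domains are often found at genes that define a cell's identity. NKX2-1 is the homeodomain factor that sets lung identity and drives surfactant genes, and FOXA1 and FOXA2 are forkhead pioneer factors that open chromatin in endoderm. GATA6 acts early in lung endoderm, SOX2 marks the proximal airway, SOX9 and ETV5 mark the distal tip of the growing lung, and CEBPA and KLF5 take part in epithelial maturation. In lung adenocarcinoma, the loss of NKX2-1 is known to release gastric genes that FOXA factors then drive.

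The epithelial label of the lines was checked against 8 epithelial markers. Krt8, Krt18, Krt19 and Cdh1, keratins and E-cadherin, had promoter peaks in all 4 lists, while Epcam and Cldn4 had none in any list. In all 5, 4, 5 and 4 of the 8 had one. Of 8 mesenchymal markers 4, 4, 4 and 3 had a promoter peak, with Vim, Zeb1 and Zeb2 in all 4 lists. The shares over all protein-coding genes were 50%, 49.1%, 49.4% and 41.3%. Of 6 immune markers none had one in any list, and of 4 endothelial markers Pecam1 had one in both Tnm2 lists.

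The sequences shown here are windows of 300 bases that the results below turn on, in build GRCm38.p6, whose coordinates the peak lists share. Capitals mark matches, on either strand, to a short motif for each family of factors. The NKX2 motif that NKX2-1 belongs to was searched as CACTTGA. The forkhead motif of FOXA1 and FOXA2 was TGTTTAC. For GATA6 and its relatives the letters were AGATAA. The SOX motif shared by SOX2 and SOX9 was searched as ACAAAG. The ETS motif of ETV5 and many other factors was CCGGAAG. Letters searched for KLF5 and the other KLF factors were GGGTGTG. For CEBPA the letters TTGCNNAA were taken, with N for any base. The promoters are those of the RefSeq table for this build, run with the gene, begin upstream of the start site and end just past it. Sox9, Gata6 and Klf5 had no entry in that promoter table. The Sox2 promoter is shown because it carried peaks in CK1750 and none in Tnm2. The Nkx2-1 promoter is that of the upstream start site, which no peak of any list covered. The Foxa1 promoter lay wholly under peaks in all 4 lists.
Sox2 promoter, chr3:34649745-34650044, plus strand: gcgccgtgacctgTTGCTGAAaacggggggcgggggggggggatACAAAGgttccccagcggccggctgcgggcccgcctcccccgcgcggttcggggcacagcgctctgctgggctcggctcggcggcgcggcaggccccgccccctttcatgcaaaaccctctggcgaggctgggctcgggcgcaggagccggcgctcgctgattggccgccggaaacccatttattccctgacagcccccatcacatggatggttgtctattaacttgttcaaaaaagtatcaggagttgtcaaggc
Nkx2-1 promoter, chr12:56536859-56537158, minus strand: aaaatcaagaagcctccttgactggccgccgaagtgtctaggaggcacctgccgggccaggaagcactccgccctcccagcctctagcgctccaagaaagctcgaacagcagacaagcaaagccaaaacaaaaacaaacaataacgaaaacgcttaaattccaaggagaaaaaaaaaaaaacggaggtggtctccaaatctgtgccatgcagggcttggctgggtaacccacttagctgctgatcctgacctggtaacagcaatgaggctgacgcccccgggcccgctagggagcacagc
Foxa1 promoter, chr12:57546062-57546361, minus strand: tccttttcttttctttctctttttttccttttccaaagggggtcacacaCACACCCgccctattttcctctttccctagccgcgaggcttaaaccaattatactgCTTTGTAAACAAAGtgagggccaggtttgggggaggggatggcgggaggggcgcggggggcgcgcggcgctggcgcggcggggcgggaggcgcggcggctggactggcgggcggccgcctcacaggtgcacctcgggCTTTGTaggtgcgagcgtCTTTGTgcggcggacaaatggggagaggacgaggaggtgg

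The next windows are the centres of regions outside the promoters, on the plus strand. The first lies downstream of Foxa1 and held the highest-scoring peaks found around that gene. The second is the far region downstream of Sox2, present in both CK1750 lists. The third lies in an intron of 9030622O22Rik, downstream of Foxa2, and carried a peak in all 4 lists. The peaks of CK1750 with DMSO and of Tnm2 with UNC0638 ended inside that window, before its NKX2 match.
Foxa1 downstream region, chr12:57538967-57539266: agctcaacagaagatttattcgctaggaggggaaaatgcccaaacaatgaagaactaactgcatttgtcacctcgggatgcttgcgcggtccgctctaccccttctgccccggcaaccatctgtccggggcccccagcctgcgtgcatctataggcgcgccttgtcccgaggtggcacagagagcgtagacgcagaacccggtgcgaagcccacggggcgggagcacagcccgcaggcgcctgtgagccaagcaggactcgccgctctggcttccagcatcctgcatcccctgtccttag
Sox2 far downstream region, chr3:34747753-34748052: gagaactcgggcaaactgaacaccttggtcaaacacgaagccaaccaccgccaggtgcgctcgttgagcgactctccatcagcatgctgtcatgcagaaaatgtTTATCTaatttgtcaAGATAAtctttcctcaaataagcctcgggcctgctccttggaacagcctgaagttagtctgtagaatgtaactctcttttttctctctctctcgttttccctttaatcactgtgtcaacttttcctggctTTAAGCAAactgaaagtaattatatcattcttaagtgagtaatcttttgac
Foxa2 downstream region, chr2:148023963-148024262: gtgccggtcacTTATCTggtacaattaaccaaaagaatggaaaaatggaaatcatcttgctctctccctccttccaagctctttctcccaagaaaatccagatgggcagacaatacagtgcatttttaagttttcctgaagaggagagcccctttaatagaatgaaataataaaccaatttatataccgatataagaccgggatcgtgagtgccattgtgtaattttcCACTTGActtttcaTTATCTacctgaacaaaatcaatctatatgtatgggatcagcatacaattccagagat

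In the Foxa1 promoter 4 SOX matches, 1 forkhead match and 1 KLF match were found, and the forkhead match overlapped SOX matches. The Sox2 promoter held 1 SOX and 1 CEBP match, and the Nkx2-1 promoter held no match to any of the motifs. The far Sox2 region held 2 GATA matches and 1 CEBP match, and the Foxa2 region held 1 NKX2 match and 2 GATA matches. Over the 9 RefSeq promoters of the 6 members with an entry, SOX letters were in 4, forkhead letters in 2, GATA, KLF and CEBP letters in 1 each, and NKX2 and ETS letters in none. Among 32841 promoters of all genes, SOX letters were in 18.7%, GATA in 11.2%, CEBP in 10.8%, ETS in 8.86%, KLF in 7.95%, forkhead in 3.65% and NKX2 in 3.06%. In 25 windows outside the promoters, taken at the centre of regions with a peak in at least 2 lists, GATA letters were in 7, SOX in 6, forkhead and KLF in 3 each, and NKX2, ETS and CEBP in 1 each. The windows set beside them were of that length at the centres of all peaks of the CK1750 DMSO list, promoter peaks included. There the shares were 9.23% for GATA, 20.4% for SOX, 3.54% for forkhead, 8.79% for KLF, 3.18% for NKX2, 5.94% for ETS and 8.56% for CEBP. A set without promoter peaks was not counted. Such matches describe letters and do not show binding. The Sox2 and Foxa1 promoters were rich in G and C, at 66.3% and 62.3% against a median of 52.7% over all promoters, while the Nkx2-1 promoter had 53.7%. The density of CpG relative to that given by the base content was 0.82 at Sox2, 0.93 at Foxa1 and 0.56 at Nkx2-1, against a median of 0.38.

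The first question was which of the factors carried an acetylated promoter. A promoter peak was found for 8, 8, 7 and 7 of the 9 genes, while 50%, 49.1%, 49.4% and 41.3% of all protein-coding genes had one. Nkx2-1, Foxa1, Foxa2, Gata6, Cebpa, Etv5 and Klf5 had a promoter peak in all 4 lists, which 39.2% of protein-coding genes also had. Sox2 had promoter peaks in the CK1750 lists and in neither Tnm2 list. Sox9 had no peak within 100 kb in any list, as did 16% of protein-coding genes. In single lists the share of protein-coding genes with no peak within 100 kb was 18.7%, 20.2%, 18.6% and 22.9%. The score of a peak, the significance value from the authors' peak caller, was read as a rank within its list, with rank 1 the highest. By the rank of its best promoter peak Gata6 led in 3 lists, and in the list of Tnm2 with UNC0638 Foxa2 stood ahead of it. Etv5 and Cebpa stood last and in that order in all 4 lists. As a percentile of its list, with tied peaks at the middle of their tie, the best Gata6 peak stood at 98.79, 99.04, 99.99 and 97.93. In the CK1750 lists it shared the score of 3100 with 558 and 371 peaks in all, and its rank there is the first of the tied places. The best Cebpa peak lay 37.4%, 51.8%, 34.4% and 42.9% of the way down its list.

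**Figure D1:**
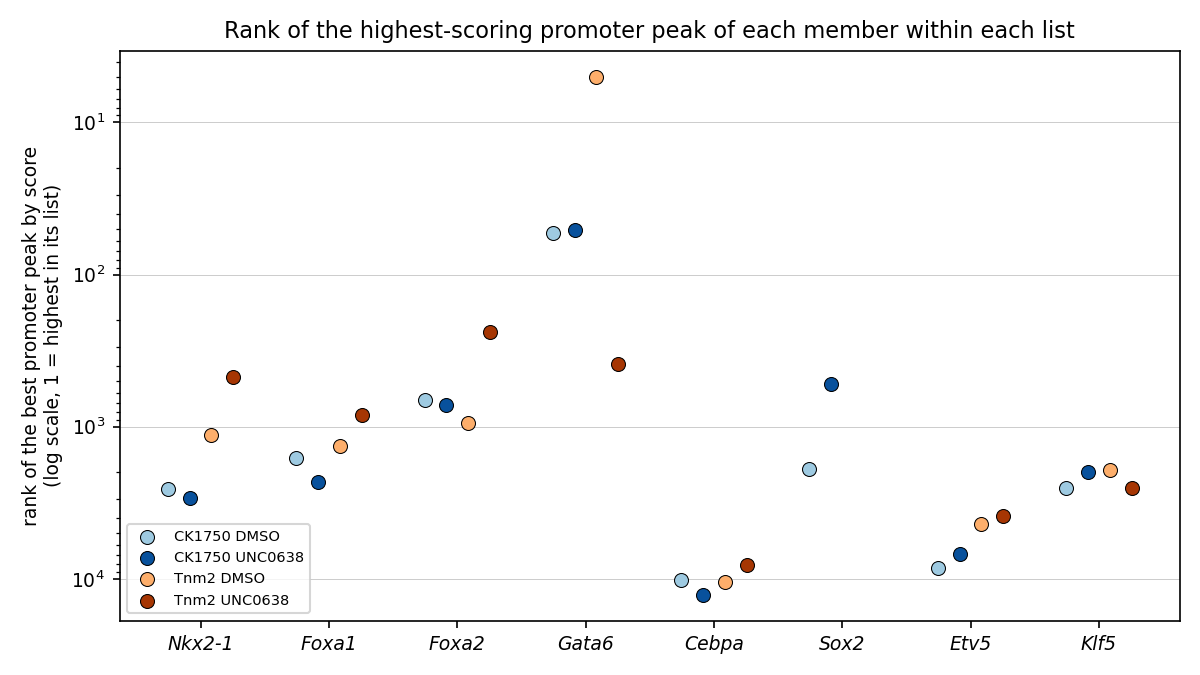
Rank by score (log scale, 1 is the highest of its list) of the best promoter peak of each of the 8 members that had one; each point is 1 peak list, coloured by cell line and treatment. Gata6 ranked between 5 and 390, Cebpa between 8064 and 12732, and Sox2 has points for CK1750 alone, since neither Tnm2 list held a Sox2 promoter peak.

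Nkx2-1 lies at chr12:56531958-56536908 on the minus strand and has 2 annotated start sites. Its main peak covered the downstream start site at position 56535106 and part of the gene body in every list, with a width of 2342, 2505, 3014 and 2734 bp. The score of this peak was 1268, 1037, 1517 and 972, which placed it at rank 2581, 2955, 1136 and 472. The Nkx2-1 peak therefore stood nearer to the top of its list in Tnm2, within the first 3.71% and 2.51% of peaks, than in CK1750, within the first 9.43% and 12.0%. The upstream start site at 56536908 was not covered in any list. In the CK1750 DMSO list a weak peak of 721 bp and score 79.4 ended 55 bp from it, and in the other lists the nearest peak was 1710, 1666 and 1625 bp away.

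Around Nkx2-1 there were 7, 6, 7 and 4 peaks, which lay in the gene or downstream of it, in the direction of the pseudogene Sfta3-ps. The strongest region outside the promoter windows was chr12:56518999-56522092, centred 16.4 kb beyond the upstream start site in an intron of Sfta3-ps. Its best score was 655, 588, 1460 and 694, at rank 5133, 5400, 1213 and 967. As at the promoter, both Tnm2 lists placed it higher than the CK1750 lists did, at the percentile of 96.0 and 94.9 against 81.2 and 78.0. Farther from the gene, at another start of Sfta3-ps, 3 weak peaks with scores of 84.4, 66.4 and 52.4 were found with DMSO in Tnm2, and none was found at those positions in the other lists. A region at a further start of Sfta3-ps, chr12:56528144-56531204, nearer to Nkx2-1, had peaks in all 4 lists, with best scores of 258, 380, 869 and 234.

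Foxa1, at chr12:57540628-57546916 on the minus strand, had 5, 5, 4 and 4 peaks. Both of its start sites lay under a peak in all 4 lists. The best promoter score was 1802, 1247, 1383 and 751, at rank 1599, 2295, 1339 and 832, and the widest promoter peak measured 2153, 2484, 2684 and 2391 bp. The highest-scoring region was not the promoter but chr12:57537779-57540454, between genes and 7.8 kb beyond the start site. It scored 3100, 3100, 3114 and 1681, at rank 53, 51, 26 and 112. In each list the peak downstream of Foxa1 therefore outranked the promoter peak. The value of 3100 is one at which scores piled up, with 558, 371, 169 and 10 peaks of the lists at exactly that value, so peaks that share it cannot be ordered. A further region at chr12:57534476-57537553 was also present in every list. In the CK1750 DMSO list a weak peak of score 50.8 lay 58.0 kb away in an intron of Mipol1, and it was the one distal region of Foxa1 that was not in all lists. With UNC0638 a weak promoter peak of score 65.1 was present in CK1750 and had no DMSO partner.

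Foxa2, at chr2:148042877-148046969 on the minus strand, had 11, 7, 16 and 11 peaks, the most of the 9 genes in 3 lists and as many as Cebpa in CK1750 with UNC0638. Its best promoter score was 2979, 2435, 1661 and 1279, at rank 663, 722, 950 and 237. The widest promoter peak measured 4120, 4047, 4298 and 2882 bp. With UNC0638 in Tnm2 the promoter was split into peaks of 2882 and 1123 bp, which together held 4005 bp and overlapped the single DMSO peak of 4298 bp. The start site at 148045948 lay in the gap between them, 25 bp from the nearer peak.

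The Foxa2 peaks outside the promoter windows all lay downstream of the gene, along the annotated gene 9030622O22Rik. The strongest of these regions, chr2:148036523-148042535, covered the start of 9030622O22Rik, with scores of 2369, 1710, 2891 and 1098 at rank 1026, 1397, 233 and 347. In Tnm2 with DMSO this region stood ahead of the Foxa2 promoter, while in the other lists the promoter stood ahead. Further regions centred 16.3, 23.5 and 33.3 kb beyond the first start site were present in all 4 lists. Weak peaks between and beyond them were found in the Tnm2 DMSO list alone, centred at 18.8, 19.9, 26.6 and 41.4 kb.

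Gata6, at chr18:11052064-11085635 on the plus strand, had the highest-ranking promoter peak of the group in 3 lists. The score was 3100, 3100, 3219 and 1045, at rank 53, 51, 5 and 390. The widest promoter peak measured 4498, 6572, 3922 and 8279 bp, at width rank 92, 51, 189 and 4. The 8279 bp peak was thus among the widest of its list of 18794 peaks. Of the 6 start sites of Gata6, 5 lay under a peak in every list, and the last, in an intron, lay under one in both Tnm2 lists. The intronic region, chr18:11058424-11059336, with scores of 148 and 66.3, was the one region around the members present in both Tnm2 lists and in neither CK1750 list. No member had promoter peaks in Tnm2 alone, where 0.688% of protein-coding genes had. Distal peaks of Gata6 were weak, and the one distal region present in all 4 lists, 16.6 kb upstream in an intron of 1010001N08Rik, scored 51.9, 114, 101 and 55.2. Other distal peaks of Gata6 scored higher than that in 3 lists, with 76.8 in CK1750 DMSO, 109 in Tnm2 DMSO and 64.1 in Tnm2 UNC0638.

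**Figure D2:**
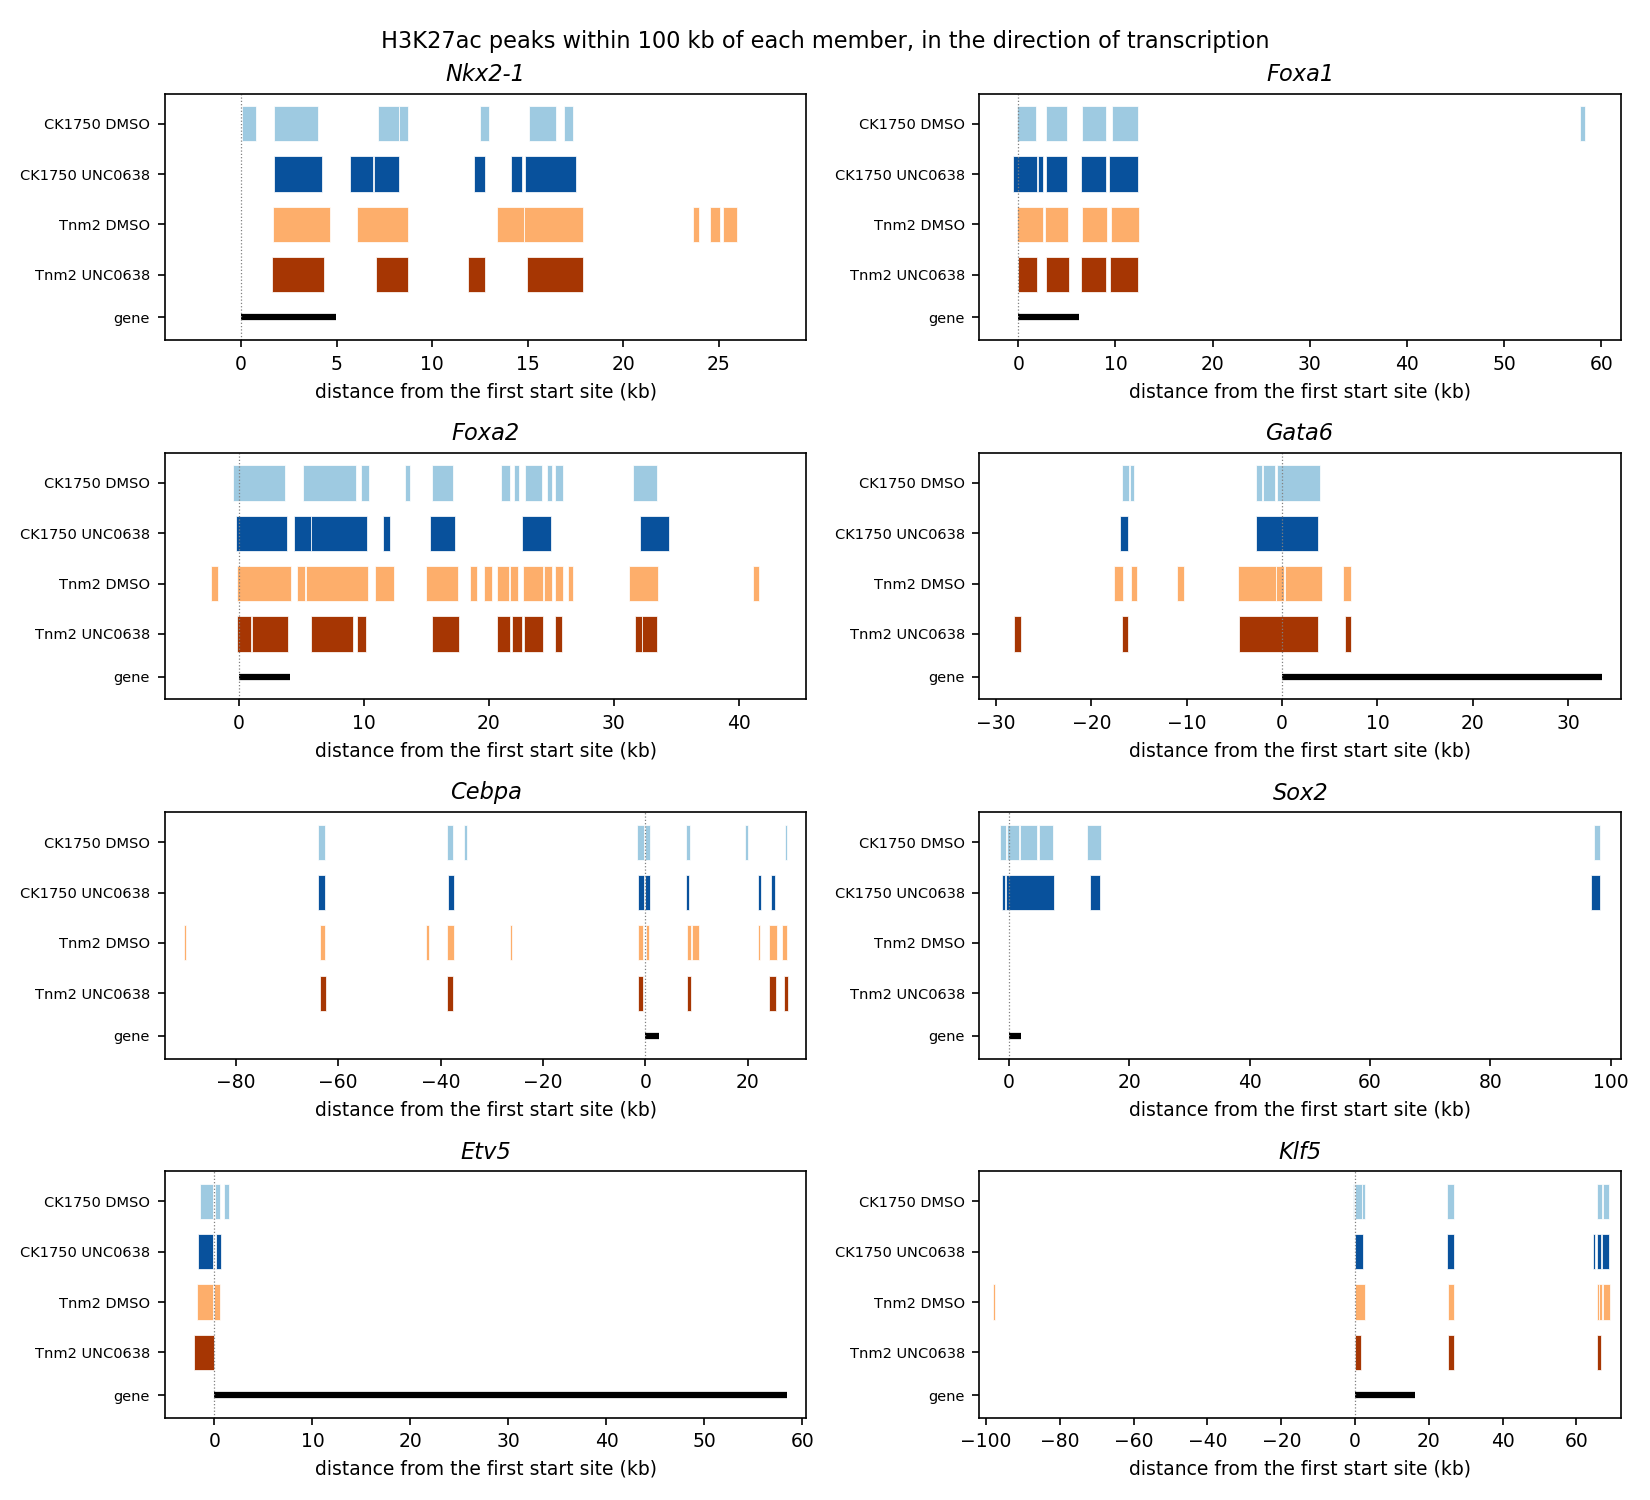
Peaks (boxes) within 100 kb of the 8 members that had any, by distance in kb from the first start site in the direction of transcription; rows are the 4 lists, the black bar is the gene, and thin white lines mark the borders of adjacent peaks, with a scale of its own for each panel. Peaks of Nkx2-1, Foxa1 and Foxa2 lie mostly in the gene or downstream, and the Sox2 rows of Tnm2 are empty.

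Sox2, at chr3:34650405-34652461 on the plus strand, lies inside an intron of the long noncoding gene Sox2ot. CK1750 carried 3 promoter peaks with DMSO and 2 with UNC0638, and Tnm2 carried none. Among protein-coding genes 2.06% had a promoter peak in both CK1750 lists and in neither Tnm2 list. In the Tnm2 lists the nearest peak to Sox2 was 568 kb away in each, and a promoter peak in both CK1750 lists with no Tnm2 peak within 100 kb was seen for 0.228% of protein-coding genes. With DMSO the Sox2 peaks of CK1750 scored 118, 1427 and 1597, and with UNC0638 they scored 90.9 and 2796. The best peak stood at rank 1899 with DMSO and 526 with UNC0638, and among genes with a promoter peak Sox2 moved from place 1887 to place 521.

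With DMSO the widest Sox2 promoter peak measured 2737 bp, at width rank 615, and with UNC0638 it measured 7922 bp, at width rank 24. The 7922 bp peak overlapped 4 separate DMSO peaks, which together held 8075 bp and spanned 8748 bp from first to last base. Over the whole block, chr3:34648994-34657846, peaks covered 8075 bp with DMSO and 8560 bp with UNC0638. The difference in width was therefore mostly that of separate peaks against one joined peak. Both CK1750 lists also held a region 14.1 kb downstream at the start sites of Gm42693 and Sox2ot, with scores of 416 and 299, and one 97.5 kb downstream between genes, with scores of 134 and 159.

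Sox9, at chr11:112782224-112787760, had no peak in any promoter or surrounding window. The nearest peaks lay downstream, at 244.5, 211.1, 122.6 and 211.1 kb, with scores of 55.6, 117, 55.6 and 129. Within 500 kb of the gene there were 13, 10, 21 and 12 peaks, of which the best scored 443, 444, 399 and 324. A list that ends at a cutoff shows that no peak passed it, not that acetylation is absent.

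Etv5, at chr16:22381309-22439719 on the minus strand, encodes an ETS factor that acts downstream of growth factor signals, and all of its peaks were promoter peaks, 3, 2, 2 and 1 of them. The best scored 334, 436, 614 and 285, at rank 8548, 6883, 4394 and 3867, and measured 1318, 1627, 1645 and 2009 bp. This main peak lay upstream of the start sites. The start site at 22439570 was covered in 3 lists by a separate weak peak with a score of 62.3, 69.0 and 117, which was not in the list of Tnm2 with UNC0638. A further peak of 510 bp and score 93.6, in an intron of Etv5, was found in CK1750 with DMSO alone. It covered all 300 bases of a RefSeq promoter of Etv5, which no peak of the other lists touched.

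Cebpa, at chr7:35119293-35121928 on the plus strand, had the weakest promoter peaks of the 8 genes, with best scores of 253, 170, 236 and 140 at rank 10235, 12732, 10529 and 8064. The widest measured 1367, 1185, 1119 and 1109 bp. The start sites of Cebpa lay under a peak in both CK1750 lists and in neither Tnm2 list. In Tnm2 with DMSO the nearest peak began 135 bp downstream of a start site, inside the gene. With UNC0638 it ended 390 bp upstream of one. In the CK1750 lists the strongest peak in its surroundings belonged to another gene, at the promoter region of Cebpg, 63.2 kb upstream. The Cebpg region scored 1604, 1231, 427 and 339, at rank 1888, 2344, 6457 and 3104. In both Tnm2 lists the strongest peak lay instead at chr7:35080501-35081985, upstream and near a start site of Gm25033. This region was present in all 4 lists, with scores of 456, 521, 612 and 393 at rank 6870, 6004, 4415 and 2488. A region at chr7:35143327-35144939, 24.8 kb downstream and near the start of Gm35665, scored 124, 555 and 278 in the lists of CK1750 with UNC0638, Tnm2 with DMSO and Tnm2 with UNC0638, and was not in the CK1750 DMSO list.

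Klf5, at chr14:99298691-99315036 on the plus strand, had both start sites under a peak in all 4 lists. Its best promoter score was 1285, 1372, 1114 and 389, at rank 2545, 1996, 1915 and 2529. The widest promoter peak measured 1921, 2231, 2707 and 1625 bp. A distal region at chr14:99323567-99325573, 25.8 kb downstream and between genes, was also present in each list, with scores of 961, 722, 782 and 503 at rank 3560, 4444, 3215 and 1682. In Tnm2 with UNC0638 this region ranked ahead of the Klf5 promoter, and in the other lists the promoter ranked ahead. Near the start of Gm49218 another region, chr14:99365675-99367667, scored 344, 214 and 409, and had no peak in the list of Tnm2 with UNC0638.

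The next comparison was UNC0638 against DMSO in each line. In CK1750 the 9 genes had 51 peaks within 100 kb with DMSO, and 38 were found after UNC0638, which made -25.5% beside -10.1% for the whole list. In Tnm2 they had 54 and 33 peaks, or -38.9% beside -38.7%. With the same number of highest-scoring peaks taken from every list, the members' change was -2.94% in Tnm2 and -9.09% in CK1750. The whole lists are then equal in number by construction. In CK1750, 7 of the 8 genes with a peak had fewer peaks with UNC0638, Foxa1 had equal numbers, and 47.1% of protein-coding genes with a peak had fewer. In Tnm2, 6 of the 7 genes with a peak had fewer, again Foxa1 had equal numbers, and the share among protein-coding genes was 78.4%. No member had more peaks with UNC0638 in either line, where 21.8% of protein-coding genes had in CK1750 and 3.75% in Tnm2.

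The length under peaks went the other way in CK1750. There the peaks around the 9 genes covered 69.5 kb with DMSO and 73.0 kb with UNC0638, a change of 5.04% against 11.2% summed over all protein-coding genes. In Tnm2 they covered 78.3 and 57.2 kb, a change of -26.9% against -26.0%. With equally long lists the members' changes in length were 13.8% in CK1750 and -14.3% in Tnm2, and those over all genes were not recomputed. The median peak around the members was wider with UNC0638 in both lines, at 1112 and 1459 bp in CK1750 and at 915.5 and 1319 bp in Tnm2, as was the median of the whole lists, at 835 and 1048 bp and at 831 and 1040.5 bp. In CK1750, 6 of 8 genes had more covered length with UNC0638, against 66.4% of protein-coding genes, and Cebpa and Etv5 had less. In Tnm2, 7 of 7 genes had less, where 9.22% of protein-coding genes had more. The largest difference was at Foxa2 in Tnm2, with 23.5 kb under DMSO and 16.0 kb under UNC0638.

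**Figure D3:**
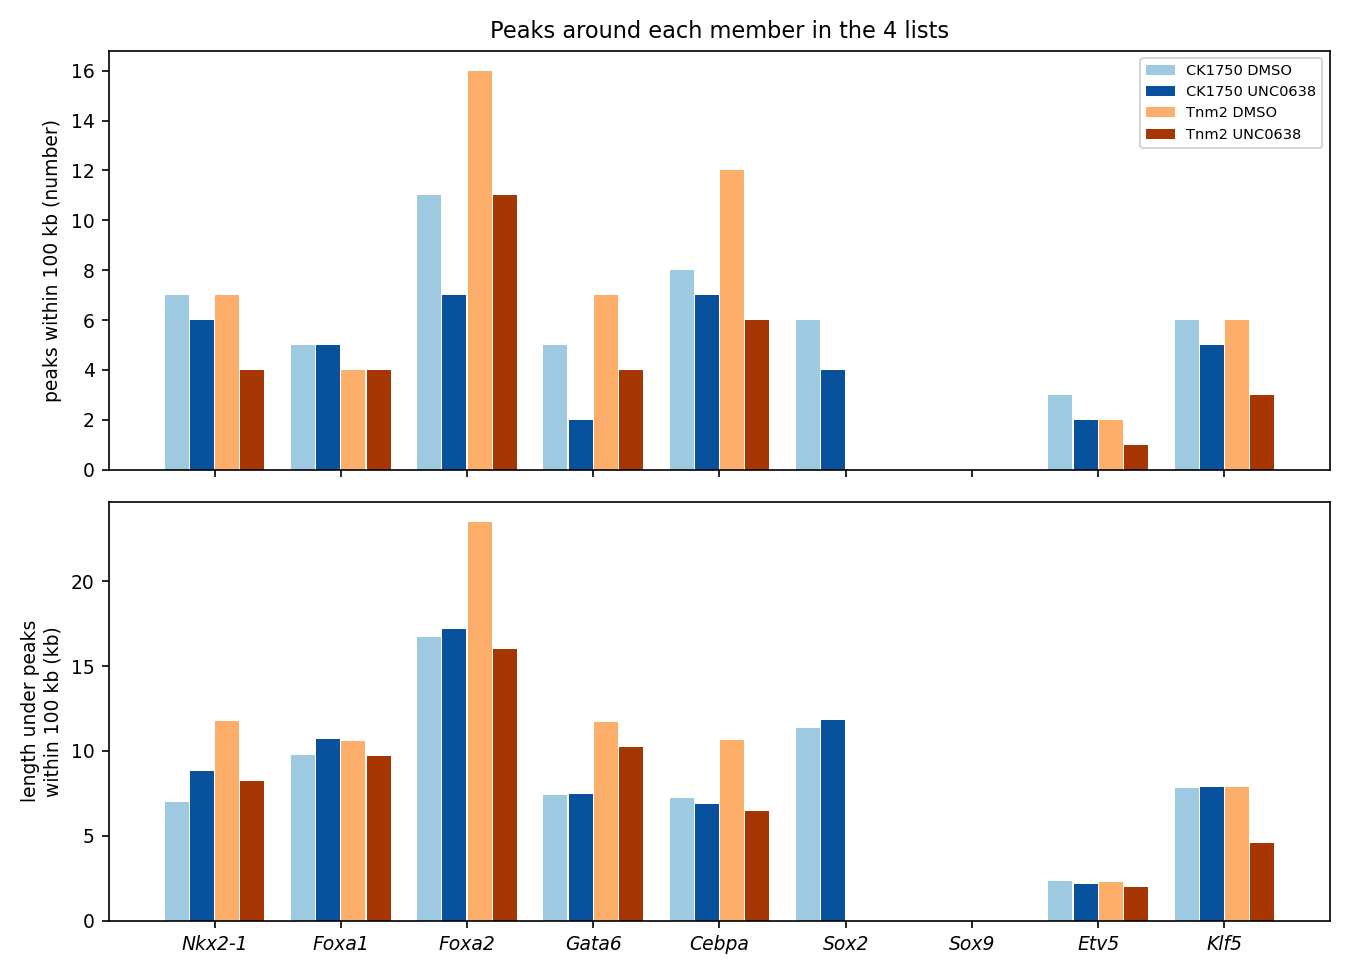
Number of peaks within 100 kb (top) and length under those peaks in kb (bottom) for each of the 9 members; bars are the 4 lists, and there are no error bars because each group had 1 list. Foxa1 has equal numbers with both treatments in each line, Foxa2 goes from 16 to 11 peaks in Tnm2, and Sox9 has no bar.

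The widest promoter peak was wider with UNC0638 for 6 of 8 genes in CK1750 and for 2 of 7 in Tnm2, where 67.4% and 34.7% of protein-coding genes with a promoter peak in both lists had a wider one. The median change was 309.5 bp in CK1750 and -280 bp in Tnm2 for the members, and 106 and -92 bp for all such genes. In Tnm2 Gata6 and Etv5 had the wider peak with UNC0638, and Nkx2-1, Foxa1, Foxa2, Cebpa and Klf5 had the narrower one. The Cebpa widths in Tnm2, 1119 and 1109 bp, were nearly equal, as were those of Foxa2 in CK1750, 4120 and 4047 bp. Peaks of at least 4 kb were 3, 4, 2 and 1 of the member peaks, at Foxa2, Gata6 and Sox2, where they made up 0.526%, 1.26%, 0.574% and 0.702% of the lists. Of these, the Foxa2 peaks of 4256, 4478 and 4933 bp in the first 3 lists were not promoter peaks. They lay at the start of 9030622O22Rik. Shares among promoter peaks alone were not counted.

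**Figure D4:**
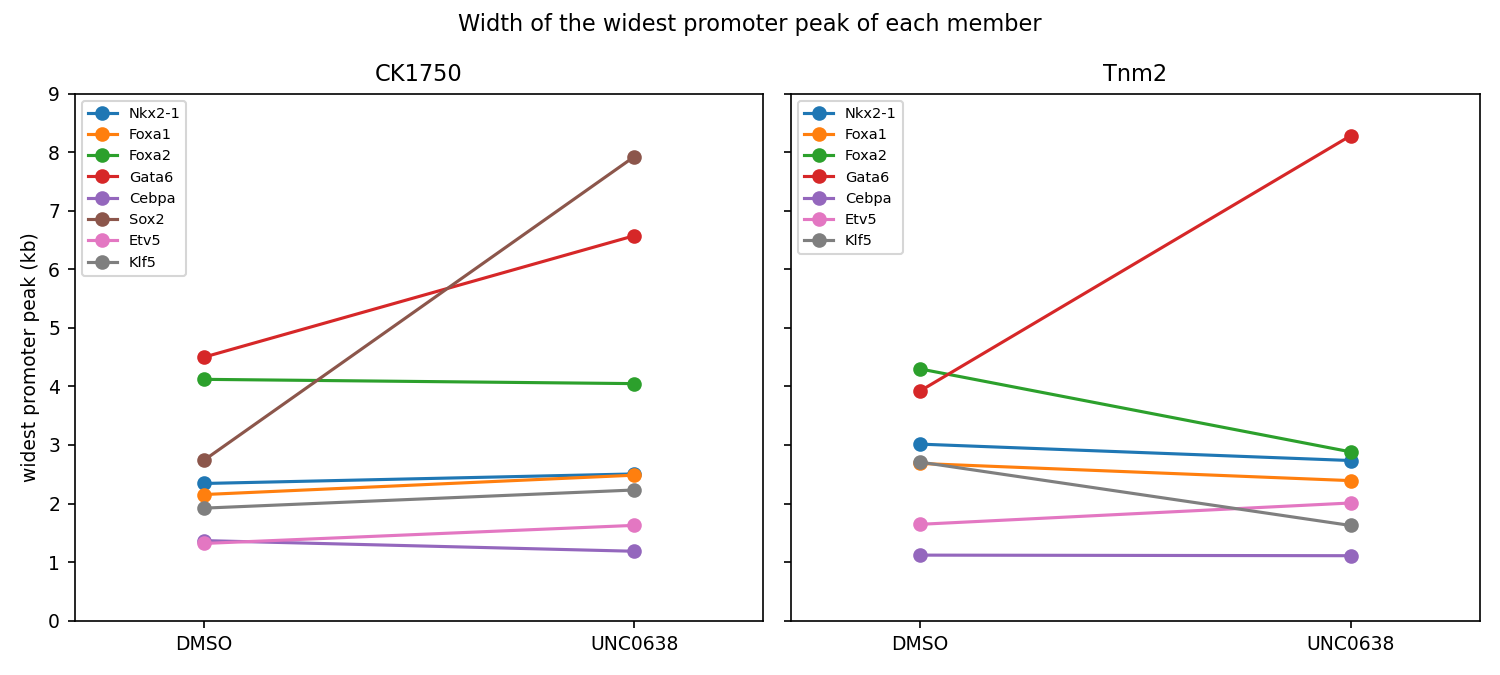
Width in kb of the widest promoter peak of each member with DMSO and with UNC0638, in CK1750 (left) and Tnm2 (right); each line joins the values of 1 gene from 1 list each. With UNC0638, Gata6 in both lines and Sox2 in CK1750 stand above the others, reaching 8279 bp for Gata6 in Tnm2 and 7922 bp for Sox2 in CK1750.

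The widest of these peaks with UNC0638 covered the places of several DMSO peaks. In CK1750 the 6572 bp peak of Gata6 overlapped 3 DMSO peaks of 6412 bp in sum, and in Tnm2 the 8279 bp peak overlapped 3 of 8615 bp in sum. At Gata6, as at Sox2, the bases under peaks at the promoter were thus nearly the same with both treatments. In CK1750, 7 of 38 member peaks with UNC0638 (18.4%) overlapped 2 or more DMSO peaks, against 8.63% of the whole list, and they lay at Nkx2-1, Foxa2, Gata6, Sox2 and Klf5. In Tnm2 the number was 2 of 33 (6.06%), against 6.58% of the list, at Gata6 and Klf5. In the reverse direction, 2 of 51 CK1750 DMSO peaks and 3 of 54 Tnm2 DMSO peaks overlapped 2 or more UNC0638 peaks, where the lists had 2.70% and 3.09%.

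DMSO peaks sharing not 1 bp with any UNC0638 peak of their line were counted as lost, and UNC0638 peaks sharing none with a DMSO peak as gained. Around the members 12 of 51 peaks were lost in CK1750 (23.5%, Wilson 95% interval 14.0 to 36.8%, counting error only), and 21% of peaks around all protein-coding genes were. In Tnm2, 23 of 54 were lost (42.6%, interval 30.3 to 55.8%), beside 42.3%. Gained peaks were 7 of 38 in CK1750 (18.4%, interval 9.22 to 33.4%), beside 19.1%, and 2 of 33 in Tnm2 (6.06%, interval 1.68 to 19.6%), beside 8.50%. The shares of the members were near those of all genes. The intervals take peaks as independent, while many lie at the same gene, and Foxa2 alone held 8 of the 23 lost in Tnm2. They were therefore not used as a test of likeness. With equally long lists the lost shares of the members were 6.06% in CK1750 and 20.6% in Tnm2. The shares around all genes were not recomputed for such lists, so 21% and 42.3% are not their counterparts. The lost peaks were weak: in CK1750 their median score was 59.9, against 413 for kept peaks, and in Tnm2 it was 88.5, against 612.

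Of the member peaks with a score of at least 100, 0 of 30 were lost in CK1750, which allows a share of up to 10%, where 4.93% were lost around all genes. In Tnm2, 7 of 35 such peaks were lost (20%), beside 21%. Of weaker member peaks 12 of 21 were lost in CK1750 and 16 of 19 in Tnm2, beside 49.5% and 79.2%. Gained peaks of at least that score were 2 of 29 in CK1750 and 0 of 25 in Tnm2, which allows up to 12%, beside 5.24% and 0.706%. Weaker gained peaks were 5 of 9 and 2 of 8, beside 49.7% and 19.6%. The strongest lost peak in Tnm2 was that of the Gm49218 region downstream of Klf5, at a score of 409, and in CK1750 it was the Etv5 peak of score 93.6. The strongest gained peak in CK1750 was the Gm35665 region of Cebpa at a score of 124, and in Tnm2 it was a peak of score 64.1 lying 27.7 kb upstream of Gata6. Of the promoter peaks 3 of 19 were lost in CK1750, at Nkx2-1, Etv5 and Klf5, and 3 of 14 in Tnm2, at Foxa2, Cebpa and Etv5, beside 10.7% and 29.2% of promoter peaks of all genes. Promoter peaks gained were 1 of 13 in CK1750, at Foxa1, and 0 of 10 in Tnm2, beside 8.98% and 3.70%. No member had a promoter peak with one treatment and none with the other in the same line, where 4.85% of genes with a DMSO promoter peak in CK1750 and 17.7% in Tnm2 had none with UNC0638. In the reverse direction the shares were 3.08% and 1.45%.

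**Figure D5:**
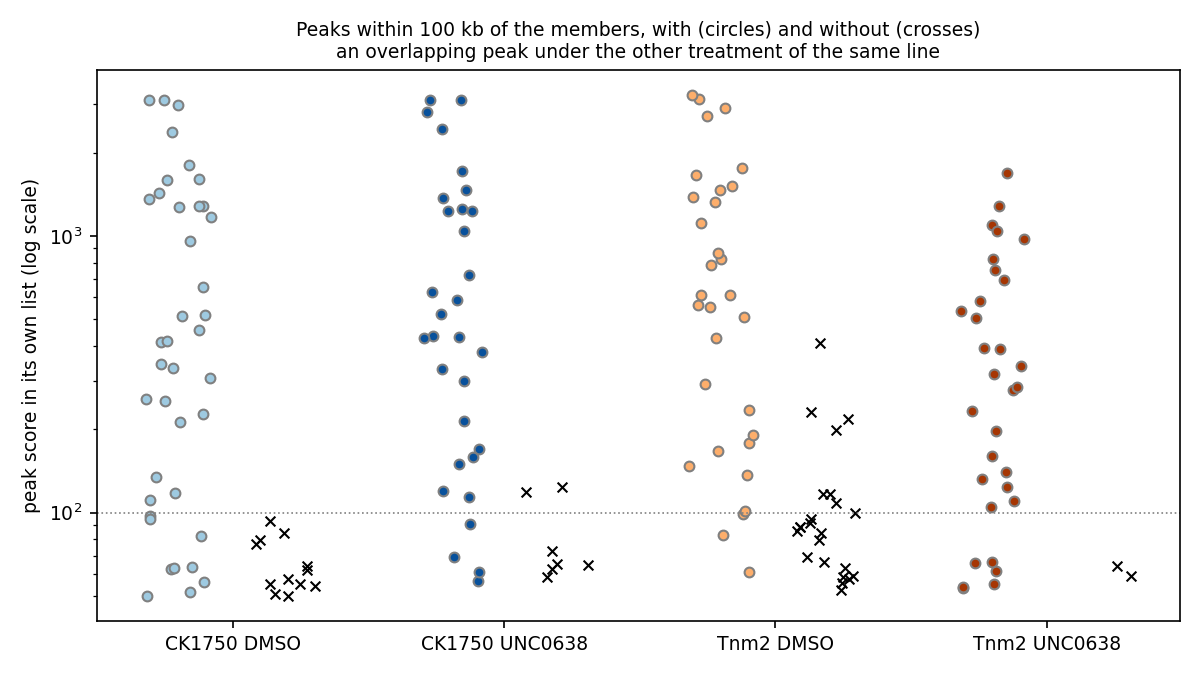
Score (log scale) of each peak within 100 kb of the members in its own list, drawn as a circle where the other treatment of the same line had an overlapping peak and as a cross where it had none; the dotted line is a score of 100 and sideways spread is for display. Crosses of CK1750 with DMSO all lie under the line, and those of Tnm2 with DMSO reach 409.

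Between the lines, 37 of 51 member peaks of CK1750 with DMSO overlapped a Tnm2 DMSO peak (72.5%, interval 59.0 to 82.9%), and 64.8% of the Tnm2 DMSO peaks overlapped one of CK1750. The shares over peaks around all protein-coding genes were 74.4% and 66.1%. With UNC0638 the shares were 63.2% for CK1750 and 84.8% for Tnm2, beside 61.8% and 83.2%. The Sox2 peaks of CK1750 had no Tnm2 partner, so leaving them out could only raise the CK1750 values. Without them the values were 82.2% for DMSO and 70.6% for UNC0638, and the shares over all genes were not trimmed in this way. Merged over the 4 lists, the surroundings of the members held 60 regions, of which 22 were in all lists and 23 in a single list. The single-list regions were 14 of Tnm2 with DMSO, 7 of CK1750 with DMSO and 1 for each UNC0638 list. Of the 60 regions 45 lay in the gene or downstream and 15 upstream. Such merged regions were not counted around all genes, so these numbers are not read as traits of the members.

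Other genes of the same network were counted by the same rule. Of all protein-coding genes 50%, 49.1%, 49.4% and 41.3% had a promoter peak, and 39.2% had one in all lists. Of 28 other lung epithelial transcription factors 19, 17, 17 and 17 had a promoter peak, 16 of them in all lists and 8 in no list. Sox4, Tead1, Nfib and Foxp1 were among the former, and Trp63, Foxj1, Hopx and Spdef, which mark basal, ciliated, alveolar type 1 and goblet cells, were among the latter. Irx1 had promoter peaks in CK1750 and not in Tnm2, as Sox2 did, and Foxp2 showed the reverse. Of 22 transcription factors of other endoderm lineages 6, 6, 8 and 5 had one, smaller shares than among all protein-coding genes. In all lists 4 of them had one, again a smaller share. These 4 were Hnf4a, Cdx2, Onecut2 and Hhex, factors of intestine and liver.

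Of 15 genes known to be driven by the factors in the lung 5, 4, 7 and 4 had a promoter peak, beside the 50%, 49.1%, 49.4% and 41.3% of all protein-coding genes, and Sftpc, a surfactant protein gene, and Abca3, which transports surfactant lipid, were the 2 with one in all lists. The Sftpc peak scored 386, 214, 330 and 148. Napsa, Lamp3, Sftpa1, Sftpd, Lyz2, Slc34a2 and Scgb3a2 had none in any list. Cldn18 had promoter peaks in both Tnm2 lists, with best scores of 958 and 492, and in neither CK1750 list.

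The likeness of width patterns was measured as the distance between the log2 widths (in bp, plus 1) of the widest promoter peak over the 4 lists, among 65 genes of these 3 companion lists. The nearest genes to Nkx2-1 were Tead1 at 0.48 and Cdx2 at 0.58, to Foxa1 Foxm1 at 0.50 and Cdx2 at 0.55, and to Foxa2 Onecut2 at 0.41 and Foxp1 at 0.61. Cebpa was nearest to Sftpc at 0.43 and Etv4 at 0.51, Etv5 to Hhex at 0.55 and Etv4 at 0.70, and Klf5 to Grhl2 at 0.40 and Foxp4 at 0.62. Sox2 had Irx1 at 3.68 and then Lpcat1 at 9.84, the largest distances of the 8 genes. A list without a peak entered the distance as no width. The distance to Lpcat1 therefore mostly reflects its Tnm2 DMSO peak, which Sox2 lacked. Irx1 shared the empty Tnm2 lists of Sox2, and its distance came from the CK1750 widths.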

How the data were processed

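H3K27ac was measured by chromatin immunoprecipitation and sequencing. The authors aligned reads to mm10 with Bowtie2, called peaks with MACS 1.4.2 at a P cutoff of 1e-05, and deposited 1 merged peak list per group with a score for each peak, which is -10 log10 of P and starts at 50. The control library used for peak calling is not given in the sources used here, and neither is the depth. Scores depend on depth and were ranked within a list, never compared as signal between lists.

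Peaks were set against GENCODE M21 genes and start sites with Python 3.11.15, numpy 2.4.6 and pandas 2.3.3, with sequences read by pysam 0.24.0 and intervals from scipy 1.17.1. Peaks of the files lay within the ends of the 21 chromosomes of GRCm38.p6. Overlap meant at least 1 bp, tested on simulated intervals. Background shares were taken over 21951 protein-coding genes or their peaks. Intervals are Wilson intervals at 95% and cover counting error only, as does the limit a count of 0 allows, set at 3 counts. Both take peaks as independent, though peaks of the same gene are not.

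Named were all 9 members, the gene nearest to a described peak, the 2 companion genes most alike in promoter peak width, the highest-scoring region outside the promoter windows for each member, and the highest-scoring lost, gained and line-restricted regions. Other regions and companion genes named were chosen after their values were seen. The members and lists were chosen with earlier results of these data known. Alternatives tried were other windows, coding start sites, a score of at least 100, equally long lists and a reciprocal overlap. The other 21 samples of the series were not analysed here, and the companion genes of Gata6 are not reported here.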

Additional observations from a re-analysis of the deposited data

Results flagged for a closer look

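Differences between UNC0638 and DMSO that had opposite signs in the lines are given here as UNC0638 minus DMSO. With 1 list per group, the difference between the lines was not tested. For the widest promoter peak, Nkx2-1 differed by 163 bp in CK1750 and -280 bp in Tnm2, Foxa1 by 331 and -293 bp, and Klf5 by 310 and -1082 bp. Among 8615 protein-coding genes with a promoter peak in all 4 lists, 44.7% were wider in CK1750 and narrower in Tnm2, and 10.7% the reverse.

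For the length under peaks within 100 kb, Nkx2-1 differed by 1.849 kb in CK1750 and -3.519 kb in Tnm2, and Foxa1 by 0.983 and -0.849 kb. Foxa2 differed by 0.526 and -7.51 kb, Gata6 by 0.025 and -1.453 kb, and Klf5 by 0.056 and -3.309 kb. The same pair of signs was found for 63.0% of 16541 protein-coding genes with a peak in all 4 lists. The Tnm2 list with UNC0638 was also the shortest, at 18794 peaks against 30641 with DMSO. With the 18794 highest-scoring peaks of each list, the length around the members together changed by 13.78% in CK1750 and -14.3% in Tnm2. The main changes were 5.04% and -26.91%. For single genes the part of list length in these differences was not tested.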

How the results depend on the processing

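Of 66 values recomputed for 14 results, 57 stayed near the reported value, 9 moved and 0 reversed. Near meant within a counting interval taken from numbers of peaks, or, for members with a promoter peak, within a fixed ratio. The intervals were wide. With a score of at least 100 the number of peaks in CK1750 changed by -3.33%, against -25.49% in the main result, and this counted as near. With peaks scoring at least 100 in both lists, the share of DMSO peaks lost was 0.00% in CK1750 and 28.57% in Tnm2. With the 18794 highest-scoring peaks of each list it was 6.06% and 20.59%, and the number of peaks in Tnm2 changed by -2.94%. With an overlap of 50% of both peaks, 45.10% of DMSO peaks were lost in CK1750, 21.21% of UNC0638 peaks were gained in Tnm2, and the DMSO peaks shared between lines were 50.98% in CK1750 and 48.15% in Tnm2. A stricter overlap calls joined and separate peaks different, and shorter or filtered lists hold fewer weak peaks. Shares around all protein-coding genes were not recomputed under these alternatives. The counts of members with a promoter peak stayed at 8, 8, 7 and 7 in every alternative run for them.

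No paired analysis was possible because each group had 1 merged peak list, and replicates were neither left out nor paired. A peak absent from a list fell under its cutoff at an unknown depth, and widths and numbers of peaks depend on how the caller joins neighbouring peaks. Peaks cannot tell which gene they act on.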
